A study of Mus musculus with 12 samples.

Results

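The comparison described here is that of the wild-type cells of the series at its earlier and later stage, 6 of the 12 RNA sequencing libraries. The members were chosen by their labels alone: 3 libraries of granulocyte-macrophage progenitors (GMP WT 1 to 3) and 3 of GMP that had been transduced with GATA2 (GATA2-GMP WT 1 to 3), all from C57BL/6 mice labelled wild type, and all of polyadenylated RNA. GMP were sorted directly into Trizol without culture, and their libraries were made with a TruSeq kit. GATA2-GMP were sorted, transduced, sorted again and kept in culture for 48 hours, and their RNA went through a SMARTer low-input kit before the TruSeq kit. Stage, transduction, second sort, culture and library kit therefore change together between the groups, and cannot be told apart in any value below. The labels name neither the vector nor its promoter, and give no age, no sex and no culture medium; no library of GMP that went through culture without GATA2 is among the 12. They do not say that the replicates came from separate animals, so each p-value measures the spread between these libraries, which may be technical. The other 6 libraries hold the same stages of Xbp1-deficient mice and are used only for the last comparison.

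GMP are progenitors of the blood that give rise to neutrophils, monocytes and the rarer granulocytes. They are defined by surface Kit and CD34 and by transcripts of the azurophil granule such as myeloperoxidase, and the transcription factor C/EBP alpha is needed to form them. GATA-2 is a zinc-finger transcription factor of stem cells, mast cells, basophils and eosinophils, and its enforced expression in GMP is a known route to eosinophil development in culture. Eosinophils fill their granules with major basic protein (Prg2 and Prg3), eosinophil peroxidase (Epx) and ribonucleases of the Ear family, all of which pass through the endoplasmic reticulum (ER) in quantity. XBP1 acts as a transcription factor in the unfolded protein response (UPR), which adjusts the ER to its load, and the design text of the series places the study at this point.

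Library totals ran from 15629784 to 22563638 counts over 23362 genes, and 14439 to 14580 genes had a count in GMP against 14558 to 15087 in GATA2-GMP. The share of the 10 most counted genes was 6.30 to 8.46% in each GMP library and 18.2 to 23.7% in each GATA2-GMP library. Values are given in CPM, read counts relative to the size of the library, with sizes scaled by TMM, a trimmed mean of gene ratios; its factors were 1.33 to 1.35 in GMP and 0.714 to 0.788 in GATA2-GMP. Over the genes tested, Pearson's r of log2 CPM was 0.993 to 0.994 among GMP, 0.955 to 0.968 among GATA2-GMP and 0.665 to 0.701 between the stages. Fold changes also went with gene length: in 5 groups of equal size by summed exon length the median log2 fold change (GATA2-GMP minus GMP) went from 0.87 in the shortest to -0.61 in the longest. Of the shortest genes 52.9% were called higher and 21.5% lower, and of the longest 19.6% and 48.1%. Since the kit changes with the stage, the part of length in a gene's difference was not tested. For some gene lists, values from a fit with a length trend for each library (exon-length offsets) are given below. Lists without such values below changed under it too. Aminoacyl-tRNA synthetases went from 6 to 12 higher, and ribosome biogenesis genes from 15 to 11 lower.

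**Figure D1:**
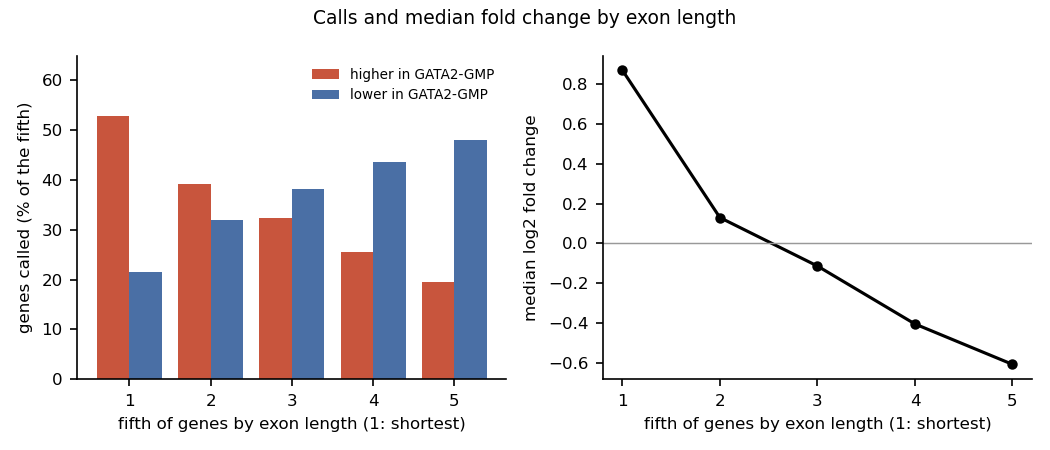
Share of genes called higher or lower in GATA2-GMP WT (left, % of the genes in each group) and median log2 fold change (right) in 5 groups of equal size by summed exon length, from 39 to 2005 bases in the shortest group to 6135 to 116828 bases in the longest. The share called higher falls from 52.9 to 19.6% and the median from 0.87 to -0.61.

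Of 12251 genes with enough counts to test, 8638 were called at an adjusted p under 0.05 (edgeR's quasi-likelihood test, Benjamini-Hochberg over all genes tested). Higher in GATA2-GMP were 4176 genes, or 34.1% of those tested, and lower were 4462, or 36.4%. More than 8-fold higher were 881 genes and more than 8-fold lower 1006. The libraries of the groups did not overlap for 77.2% of the genes tested, 4405 of them higher and 5058 lower in GATA2-GMP. The median log2 fold change over all genes tested was -0.09, with quartiles of -1.30 and 1.16. The balance of higher and lower calls depends on the scaling: on library totals alone the median moves down by 0.84 on the log2 scale, and 26.8% of the called genes are higher in place of 48.3%. Upper-quartile scaling moves it down by 0.18. Every direction below is relative to TMM, and 75 genes had no read in GMP and at least 10 in each GATA2-GMP library, while 86 showed the reverse. These 34.1 and 36.4% are the background against which each gene list is read: a list with shares like these does not stand apart from the genes at large. Values on library totals are given below for most lists whose median changes sign, for named calls that are lost and for some other lists.

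**Figure D2:**
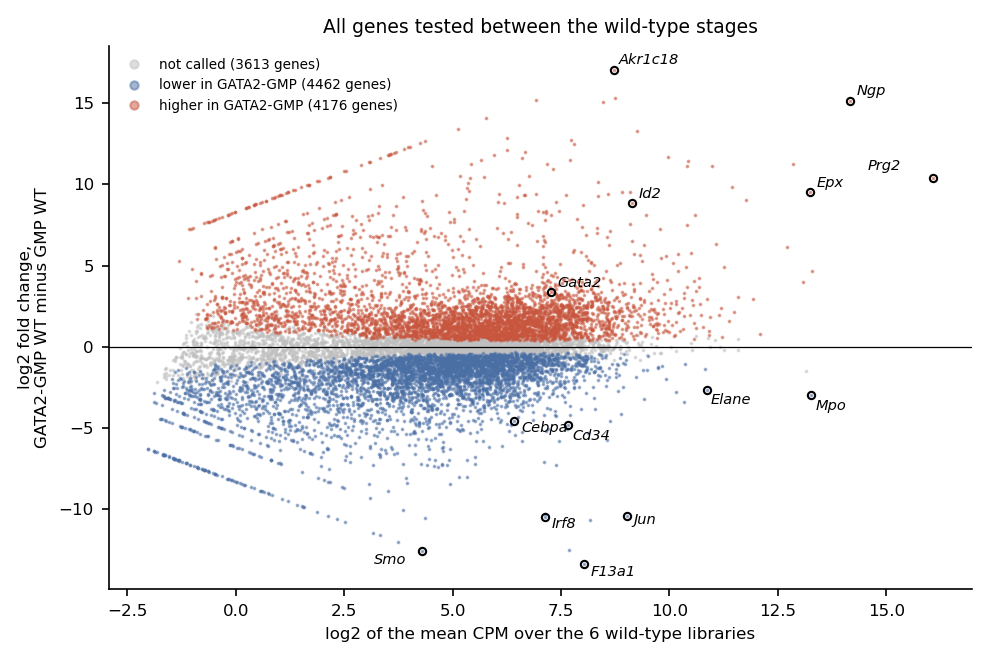
Log2 fold change (GATA2-GMP WT minus GMP WT, vertical axis) of each of the 12251 genes tested against the log2 of its mean CPM over the 6 libraries (horizontal axis); red points were called higher (4176), blue points lower (4462) and grey points neither. The eosinophil granule genes Prg2 and Epx lie at the upper right, and Mpo and Elane below 0 at high CPM; the sloping lines of points at the edges are genes with 0 or few counts in one group.

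The marker genes of the labelled cell types were checked first. Cd34, a sialomucin of progenitors, was at 365, 403 and 409 CPM in the GMP libraries and at 14.8, 17.2 and 8.90 CPM in GATA2-GMP (log2 fold change -4.85, SE 0.28, adjusted p = 7.05e-06). Kit, the receptor for stem cell factor, was at 347 to 369 CPM in GMP and at 30.2, 27.7 and 96.9 CPM in GATA2-GMP (log2 fold change -2.78, adjusted p = 0.00116). Both genes were high in each GMP library and did not overlap between the groups, which holds for 77.2% of all genes tested. Ly6a, the gene of the stem cell antigen Sca-1, which GMP lack, was at 0.370 to 0.481 CPM in GMP and rose to 18.2 to 50.1 CPM. Il7r, the interleukin 7 receptor of lymphoid progenitors, had no read in GMP and 5.22 to 13.3 CPM in GATA2-GMP, at least 218-fold higher against a floor of 3 counts over the GMP group. The GMP label thus goes with its defining markers here.

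Gata2 itself (chromosome 6, 88143885 to 88157024 in build mm9) was at 23.0, 21.6 and 38.2 CPM in GMP and at 272, 359 and 216 CPM in GATA2-GMP. Its log2 fold change was 3.35 (SE 0.30, adjusted p = 4.25e-05), and each transduced library stood above each GMP library. The counts do not separate the endogenous gene from any reads of the introduced GATA2. Gata1, a related factor of erythroid, mast cell and eosinophil development that is not named as introduced, went from 1.36, 0.960 and 2.41 CPM to 140, 117 and 203 CPM (log2 fold change 6.62, SE 0.41, adjusted p = 8.58e-06).

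Among the genes of the eosinophil granule was Prg2, the gene with the most counts of the later stage. Prg2, major basic protein, was at 177, 98.1 and 30.3 CPM in GMP and at 171700, 117400 and 123300 CPM in GATA2-GMP. On the log2 scale the change was 10.40 (SE 0.87, adjusted p = 2.98e-05), and Prg2 alone made up 8.72 to 12.3% of all counts in the GATA2-GMP libraries. Epx, the peroxidase, was at 40.3, 26.1 and 12.5 CPM in GMP and at 17570, 8155 and 32240 CPM after transduction and culture (log2 fold change 9.52, SE 0.81, adjusted p = 3.21e-05). Prg3, the second major basic protein, was at 10.6, 5.72 and 2.21 CPM and then at 7673, 4671 and 4439 CPM (log2 fold change 9.82, adjusted p = 1.62e-05). GMP WT 3 had the fewest of these transcripts among the GMP libraries for all of Prg2, Prg3 and Epx, while the GATA2-GMP libraries shared no such order.

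The ribonucleases were less uniform. Ear6 went from 2.67, 1.19 and 0.433 CPM to 1803, 891 and 552 CPM (log2 fold change 9.54, adjusted p = 3.06e-05). Ear1 went from 0.903, 0.883 and 0.241 CPM to 356, 73.7 and 106 CPM (log2 fold change 7.998, adjusted p = 7.85e-05). Ear2 went from 0.144 to 0.346 CPM to 126, 34.6 and 33.9 CPM (log2 fold change 7.90, adjusted p = 5.46e-05). GATA2-GMP WT 1 was the highest library for all 3 genes. Of the 14 granule genes listed, these 6 were tested and all 6 were higher, with a median log2 fold change of 9.53 beside -0.09 over all genes. Of the rest, Ear3, Ear4, Ear7, Ear12 and Ear14 are listed at 0 in all 6 libraries, and Ear5, Ear10 and Ear11 had too few counts to test, at most 2.09 CPM. The Ear genes are near-identical copies, so reads that fit several of them may have been lost or assigned to a single copy, and values of single members are uncertain. The summed CPM of the list was 45.9 to 232 in GMP and 131200 to 199200 in GATA2-GMP; in bulk RNA of this kind, more cells with granules and more granule RNA per cell cannot be told apart. Of the 6 genes tested 5 lie in the shortest of the 5 length groups.

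**Figure D3:**
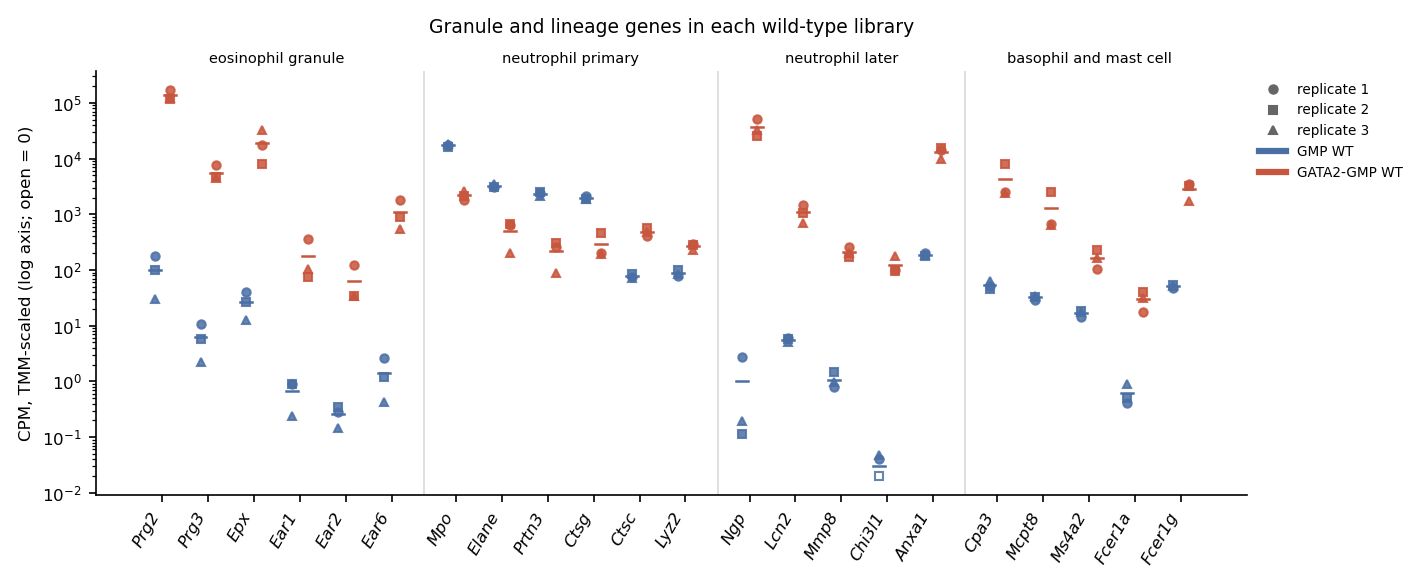
TMM-scaled CPM (log axis) of granule and lineage genes in each wild-type library; blue marks GMP WT and red GATA2-GMP WT, the symbols are replicates 1 to 3, horizontal lines are group means and open symbols at the bottom stand for 0. The 6 eosinophil granule genes and the later neutrophil genes rise in all 3 GATA2-GMP libraries, whereas Mpo, Elane, Prtn3 and Ctsg fall.

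The promoters of the listed granule genes, as RefSeq gives them for build GRCm38.p6, were searched for GATA words. Those granule genes that could be tested rose in cells given a GATA factor. No window was given for Prg2. Windows run from 250 bases before the start of transcription to 50 after it. Those of Prg3 (chr2:84987965-84988264, plus strand), Epx (chr11:87875487-87875786, minus strand) and Cd200r3 (chr16:44943428-44943727, plus strand) are shown because they hold 1, none and 3 GATA words among genes that rose strongly; capitals mark the words, on either strand. Cd200r3 is a receptor-like gene of basophils and mast cells described further on.
Prg3: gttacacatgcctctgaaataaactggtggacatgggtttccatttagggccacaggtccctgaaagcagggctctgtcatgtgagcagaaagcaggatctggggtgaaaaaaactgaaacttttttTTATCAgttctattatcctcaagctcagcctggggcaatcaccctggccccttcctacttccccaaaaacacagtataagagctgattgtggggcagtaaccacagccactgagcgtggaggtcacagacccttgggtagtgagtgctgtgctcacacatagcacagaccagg
Epx: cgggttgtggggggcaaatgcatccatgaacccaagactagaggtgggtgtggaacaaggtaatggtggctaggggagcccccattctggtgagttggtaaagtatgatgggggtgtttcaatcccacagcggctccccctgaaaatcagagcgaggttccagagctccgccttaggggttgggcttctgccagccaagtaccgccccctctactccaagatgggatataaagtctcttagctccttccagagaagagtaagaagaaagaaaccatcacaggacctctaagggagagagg
Cd200r3: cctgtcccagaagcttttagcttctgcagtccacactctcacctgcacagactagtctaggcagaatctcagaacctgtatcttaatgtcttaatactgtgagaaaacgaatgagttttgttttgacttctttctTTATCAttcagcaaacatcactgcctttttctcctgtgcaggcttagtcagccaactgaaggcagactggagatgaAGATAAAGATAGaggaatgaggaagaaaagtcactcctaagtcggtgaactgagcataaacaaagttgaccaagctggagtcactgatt
The words searched were AGATAA or AGATAG or TGATAA or TGATAG for GATA factors, TTGCNNAA for C/EBP and GAGGAA for PU.1, on both strands. For a gene with several windows, only the first listed was searched. Of the 12 largest rises named below, 10 had a window, and 3 of these (30.0%) held a GATA word, against 30.2% of 27025 promoters chosen in the same way. Among the 12 largest falls, 1 of 11 windows (9.09%) held 1, and among the primary granule genes of neutrophils 1 of 12 (8.33%). Among the eosinophil granule genes 2 of 9 (22.2%) did, those of Prg3 and Ear14, and Ear14 had no counts in these libraries. The C/EBP word was in 4 of 10 rises (40.0%) and 5 of 9 granule genes (55.6%), against 10.8% of all promoters. Those 5 are all Ear genes, which share sequence, and Ear5, Ear10 and Ear11 among them had too few counts to test. Of the falls 1 of 11 (9.09%) held the C/EBP word, and of the primary granule genes of neutrophils 3 of 12. The PU.1 word was in 8 of 12 primary granule genes (66.7%), 5 of 10 rises, 3 of 11 falls (27.3%) and 1 of 9 eosinophil granule genes (11.1%), against 28.3% of all. A match is only a run of letters in the window, and its absence says nothing of the factor.

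Receptors and enzymes of eosinophils rose almost throughout. Of 22 genes listed 20 were tested, with 18 higher and 2 lower and a median log2 fold change of 6.26. Il5ra, the alpha chain of the interleukin 5 receptor that defines the lineage, was at 1.52, 0.729 and 0.673 CPM in GMP and at 50.3, 40.4 and 95.7 CPM in GATA2-GMP (log2 fold change 5.98, SE 0.48, adjusted p = 2.54e-05). Ccr3, the eotaxin receptor, had 3 reads over the GMP group and was at 52.1, 18.1 and 17.01 CPM in GATA2-GMP, a ratio of 647 with a 95% counting interval of 221 to 3142. C3ar1, the receptor for complement fragment C3a, had 2 reads over GMP and 122.5, 199 and 136 CPM, a ratio of 5482 (1517 to 45270). Hrh4, a histamine receptor of eosinophils, had no GMP read and was at least 279-fold higher. Emr1, which encodes the F4/80 antigen, went from 7.68 to 10.1 CPM to 321 to 774 CPM. All 5 were present in each GATA2-GMP library at more than the level of any GMP library. Of all genes tested, 77.2% were likewise without overlap, in either direction.

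The receptor chains for interleukin 3, interleukin 5 and GM-CSF moved in opposite directions. Csf2rb, the common beta chain of all 3 receptors, was at 96.6, 105 and 115 CPM in GMP and at 1350, 1860 and 2334 CPM in GATA2-GMP (log2 fold change 4.13, adjusted p = 9.81e-06). Its mouse paralogue Csf2rb2, which serves interleukin 3, rose by 6.74 on the log2 scale; reads shared between these near-identical genes may have been split. Csf2ra, the GM-CSF alpha chain, fell from 78.1 to 93.5 CPM to 41.5, 33.6 and 26.0 CPM (log2 fold change -1.37, adjusted p = 4.98e-04). Il3ra, the interleukin 3 alpha chain, fell from 24.7 to 28.4 CPM to 1.41 to 4.03 CPM (log2 fold change -3.28, adjusted p = 9.89e-05). These were the 2 members of the list that were lower.

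Among 31 receptors of cytokines and growth factors tested, 13 were higher and 17 lower (median -1.103). Il6ra, the interleukin 6 receptor, was at 69.3 to 86.2 CPM in GMP and at 0.122 to 0.394 CPM in GATA2-GMP (log2 fold change -8.05, adjusted p = 2.59e-06), and its signalling partner Il6st fell by 5.71. Csf3r, the G-CSF receptor of neutrophils, was at 137 to 152 CPM and then at 3.95, 5.78 and 15.8 CPM (log2 fold change -4.09). Csf1r, the M-CSF receptor of macrophages, fell from 125, 165 and 145 CPM to 13.4, 23.8 and 11.8 CPM (log2 fold change -3.15, adjusted p = 4.99e-05). Flt3 fell from 13.3, 16.8 and 23.0 CPM to at most 0.169 CPM. In the other direction, Il1rl1, the interleukin 33 receptor, rose from 2.303 to 3.22 CPM to 189, 240 and 302 CPM (log2 fold change 6.54, adjusted p = 2.86e-06). The decoy receptor Il1r2 rose from at most 0.246 CPM to 145 to 238 CPM (log2 fold change 9.94).

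Basophil and mast cell genes also rose. Of 22 listed 18 were tested, 16 were higher and 2, Kit and Mitf, lower; the median log2 fold change was 6.05, or 5.79 with the gene without GMP reads at its bound. Cpa3, the mast cell carboxypeptidase that basophils share, was at 52.2, 46.4 and 64.4 CPM in GMP and at 2518, 7896 and 2445 CPM in GATA2-GMP (log2 fold change 6.30, SE 0.58, adjusted p = 4.58e-05). Mcpt8, a protease of mouse basophils, was at 29.2, 33.0 and 34.2 CPM and then at 676, 2504 and 653 CPM (log2 fold change 5.31, adjusted p = 1.28e-04). For both, GATA2-GMP WT 2 lay well above the other two. Ms4a2 and Fcer1a, the beta and alpha chains of the high-affinity IgE receptor, rose by 3.32 and 5.62 on the log2 scale, and Fcer1g, the gamma chain that many receptors share, by 5.80. Il4 had 3 reads over GMP and 82.7, 92.0 and 42.6 CPM in GATA2-GMP, a ratio of 1684 (576 to 8168). The summed CPM of the list was 751 to 773 in GMP and 8520 to 18740 in GATA2-GMP, and Mcpt4, a protease of connective tissue mast cells, is listed at 0 in all 6 libraries. The part of such cells in the rise of genes that eosinophils share with them was not tested.

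Genes of the primary (azurophil) granule of neutrophils moved both ways: 13 were tested, 7 higher and 6 lower, with a median of 1.17 (-0.0023 with exon-length offsets, and 0.32 on library totals alone). Mpo, myeloperoxidase, was at 17490, 16220 and 18640 CPM in GMP and at 1820, 2110 and 2610 CPM in GATA2-GMP (log2 fold change -3.001, SE 0.26, adjusted p = 3.13e-05). Elane, neutrophil elastase, was at 3058 to 3432 CPM and then at 650, 678 and 201 CPM (log2 fold change -2.65, adjusted p = 9.37e-04). Prtn3, proteinase 3, fell by 3.41 and Ctsg, cathepsin G, fell by 2.77. In contrast Ctsc, which activates the proteases among these, rose from 71.1 to 85.2 CPM to 400 to 562 CPM (log2 fold change 2.63), and lysozyme Lyz2 rose by 1.61.

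All 21 later granule and maturation genes of neutrophils that were tested were higher, with a median log2 fold change of 9.06 (8.87 with the genes without GMP reads at their bounds). Ngp, a cathelicidin-like protein of the secondary granule, was at 2.71, 0.115 and 0.192 CPM in GMP and at 51590, 25150 and 32860 CPM in GATA2-GMP (log2 fold change 15.13, SE 1.34, adjusted p = 3.84e-05). Lcn2, lipocalin 2, went from 5.15 to 6.04 CPM to 1499, 1050 and 688 CPM (log2 fold change 7.58), and Mmp8, neutrophil collagenase, from 0.780 to 1.46 CPM to 175 to 255 CPM. S100a8, a subunit of calprotectin, was at 18.5, 12.5 and 8.03 CPM and then at 8962, 7708 and 4158 CPM. Anxa1, annexin A1, rose by 6.12 on the log2 scale. The summed CPM of the list was 335 to 368 in GMP and 56340 to 85980 in GATA2-GMP. These genes rose in the same libraries as the eosinophil genes, and Csf3r and Elane fell in them; the part of neutrophils in the GATA2-GMP RNA was not tested.

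Genes of other lineages gave mixed results. Of 14 erythroid and megakaryocyte genes tested 7 were higher and 3 lower (median 0.65, but -0.18 on library totals alone and 0.33 without GMP WT 2). With exon-length offsets 5 were lower. The globin genes Hba-a1, Hba-a2 and Hbb-b2 are listed at 0 in all 6 libraries. As for the Ear genes, reads that fit several globin copies may have been lost, so these values are uncertain. Car2, carbonic anhydrase 2, rose by 2.73 on the log2 scale, and Tal1 and Zfpm1, the latter a cofactor of GATA1 also known as FOG1, fell by 1.64 and 3.57. Of 16 monocyte, macrophage and dendritic cell genes tested 7 were higher and 8 lower (median -0.81). With exon-length offsets 7 were higher and 7 lower (median -0.18). The summed CPM of this list was 1922 to 2347 in GMP and 3075 to 7699 in GATA2-GMP. Zeb2, a zinc-finger factor of monocytes and dendritic cells, fell from 250 to 286 CPM to 27.5 to 36.6 CPM (log2 fold change -3.07), and Klf4 by 5.20. Ly6c2, an antigen of monocytes that other myeloid cells share, rose by 3.08. Of 8 genes of MHC class II presentation 4 were higher and 2 lower (median 1.996): Cd74, the invariant chain, rose from 0.0821 to 0.241 CPM to 17.97, 52.1 and 57.3 CPM (log2 fold change 8.04, adjusted p = 2.20e-05), and H2-DMa and H2-Ob fell by 1.54 and 2.33.

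Of 21 lymphoid genes listed 5 had counts enough to test, 3 higher and 1 lower; Cd3e, Pax5, Ms4a1 and Ncr1 are among those listed at 0 in all 6 libraries. Il7r and Cd3d were among the 3 higher. Cd79b, the other, was at 26.9 to 29.5 CPM and then 34.7 to 57.3 CPM (log2 fold change 0.62, adjusted p = 0.0349), and it is at -0.22 on library totals and -0.11 with exon-length offsets. Leaving out GMP WT 1, 2 or 3 raises its adjusted p to 0.0862, 0.107 or 0.117, and without GATA2-GMP WT 2 its log2 fold change is 0.41. Rag2, the member called lower, had 146 reads over GMP and 2 over GATA2-GMP, both in GATA2-GMP WT 3, a ratio of 0.0205 (0.00246 to 0.0754). The Y-linked genes were read in all 6 libraries, and Xist, the transcript of the silenced X chromosome, was at no more than 0.676 CPM in any. Of these Y-linked genes Eif2s3y, Uty and Ddx3y were called higher, by 1.70, 0.65 and 0.53, and Kdm5d lower, at -0.69; on library totals Uty and Ddx3y are at -0.18 and -0.30, and only Eif2s3y is called higher without GMP WT 2.

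Of 23 stem and early progenitor genes tested, 15 were lower and 5 higher, with a median of -2.08. Sox4 was at 46.5 to 48.8 CPM in GMP and at 0.0608 to 0.671 CPM in GATA2-GMP (log2 fold change -7.38, adjusted p = 1.15e-05). Hoxa9 and Hoxa7, homeobox genes of progenitors, fell by 5.22 and 5.29. Lmo2, a bridging protein of GATA and TAL1 complexes, fell from 227 to 247 CPM to 50.5 to 54.9 CPM (log2 fold change -2.15). Myb, a factor of proliferating progenitors, fell by 1.25 and remained at 448 to 530 CPM. Ikzf2, the zinc-finger protein Helios, rose from 24.1 to 30.7 CPM to 262 to 363 CPM (log2 fold change 3.53).

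Lineage transcription factors moved both ways. Of 35 tested 14 were higher and 17 lower (median -0.87, or -0.56 without GATA2-GMP WT 1). The shares were 40.0% higher and 48.6% lower, beside 34.1% and 36.4% of all genes tested. Cebpa, which encodes C/EBP alpha, was at 166, 168 and 161 CPM in GMP and at 4.25, 9.73 and 6.70 CPM in GATA2-GMP (log2 fold change -4.57, SE 0.30, adjusted p = 1.11e-05). Irf8, the factor of monocytes and dendritic cells, was at 249, 328 and 263 CPM and then at 0.224, 0.365 and 0 CPM (log2 fold change -10.48, adjusted p = 4.10e-06). Sfpi1, which encodes PU.1, fell from 127 to 131 CPM to 44.0, 30.9 and 13.4 CPM (log2 fold change -2.13, adjusted p = 0.00134). Gfi1, a repressor needed by neutrophils, fell from 131 to 174 CPM to 20.01 to 28.5 CPM (log2 fold change -2.57). Its relative Gfi1b, better known from erythroid cells and megakaryocytes, rose from 0.346 to 1.97 CPM to 80.9 to 102 CPM (log2 fold change 6.61, adjusted p = 3.06e-05). Mef2c fell by 7.23, Myc by 1.16, and the signal transducers Stat5a and Stat5b by 1.82 and 2.17.

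Other C/EBP genes did not follow Cebpa. Cebpe, a factor of late granule genes in neutrophils and eosinophils, was at 64.9, 45.1 and 50.4 CPM in GMP and at 335, 226 and 108 CPM in GATA2-GMP (log2 fold change 2.06, SE 0.39, adjusted p = 0.00179). Cebpb rose from 13.01 to 14.6 CPM to 64.0 to 74.4 CPM (log2 fold change 2.32, adjusted p = 1.16e-05). The Id proteins bind basic helix-loop-helix factors and keep them from DNA. Id2 was at 3.16, 1.88 and 2.21 CPM in GMP and at 1085, 1270 and 1012 CPM in GATA2-GMP (log2 fold change 8.86, SE 0.30, adjusted p = 1.91e-06), and Id1 went from 2.36 to 2.83 CPM to 99.0, 129 and 30.6 CPM (log2 fold change 5.03). The ETS factors Fli1 and Ets1 rose by 2.94 and 3.57, and Runx1 by 1.07, or 0.23 with an adjusted p of 0.163 on library totals alone.

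**Figure D4:**
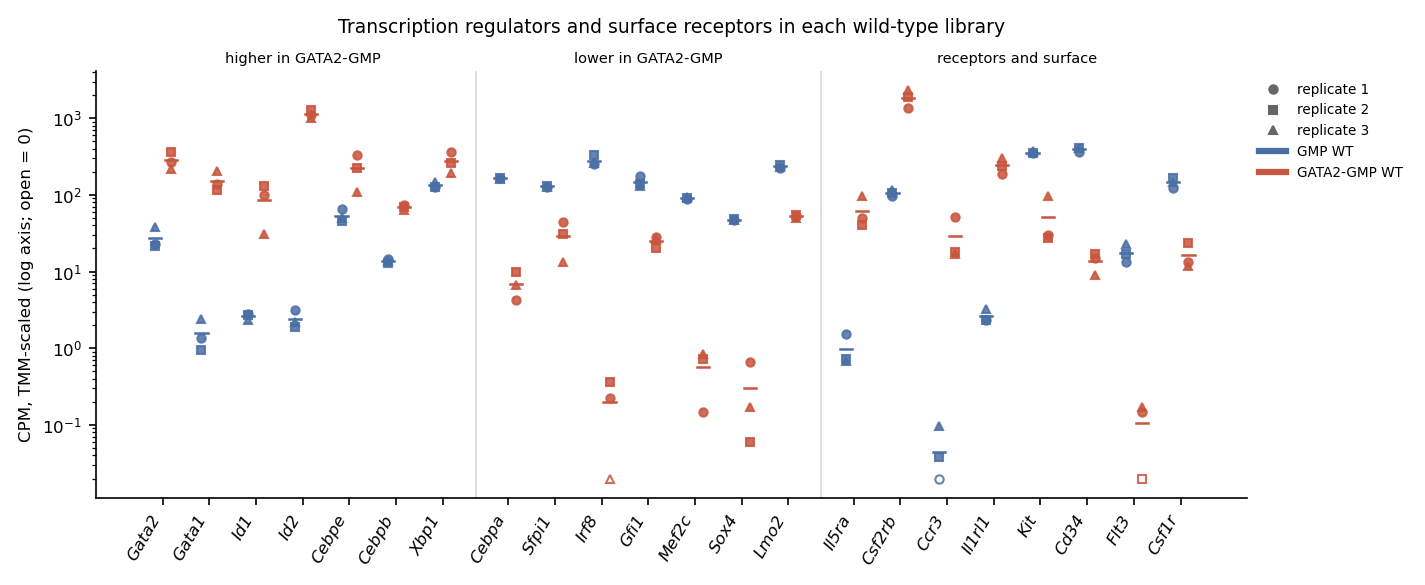
TMM-scaled CPM (log axis) of transcription regulators and surface receptors in each wild-type library; blue marks GMP WT and red GATA2-GMP WT, the symbols are replicates 1 to 3, horizontal lines are group means and open symbols at the bottom stand for 0. Gata1, Id2, Il5ra and Ccr3 rise and Cebpa, Irf8, Mef2c, Sox4, Cd34 and Flt3 fall without overlap between the groups.

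The 12 largest rises among genes of at least 20 CPM in the higher group brought together enzymes, proteases and surface proteins. Akr1c18, which encodes the 20-alpha-hydroxysteroid dehydrogenase of progesterone breakdown, had no GMP read and was at 745, 1032 and 769 CPM in GATA2-GMP, at least 20240-fold higher. Car4, a membrane carbonic anhydrase, was at 286, 115 and 324 CPM and at least 5727-fold higher. The macrophage elastase Mmp12, Ceacam10, the membrane-anchored protease Mmp25 and the complement component C7 also had no GMP read and were at least 2682-fold, 1613-fold, 1025-fold and 915-fold higher. A single GMP read was counted for Lipg, an endothelial lipase, for Serpinb2, an inhibitor of plasminogen activators, and for the cadherin Cdh17. Their ratios were 62640 (11240 to 2474000), 50010 (8975 to 1975000) and 11640 (2088 to 459700). Cd200r3 was at 0.0384 to 0.0962 CPM and then at 299, 689 and 279 CPM (log2 fold change 12.72, adjusted p = 4.73e-06). Gp49a, a receptor of the Lilrb4 family with a close copy, was at 0.0962 to 0.123 CPM and then at 1049, 1426 and 1172 CPM (log2 fold change 13.32). The last of the 12 was Ngp. Among these 12, Mmp12 had the largest ratio between GATA2-GMP libraries, at 32.1, 206 and 88.4 CPM.

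Among the 12 largest falls, 4 belong to the stress-induced transcripts described next (Fosb, Jun, Hspa1a and Hspa1b). F13a1, the A chain of coagulation factor XIII, was at 470, 658 and 444 CPM in GMP and had 2 reads over GATA2-GMP, a ratio of 7.91e-05 (9.58e-06 to 2.86e-04). Smo, the signal transducer of the hedgehog pathway, was at 34.8, 38.5 and 43.8 CPM and had no read in GATA2-GMP, at least 615-fold lower. Tie1, an endothelial and stem cell receptor kinase, also had none and was at least 419-fold lower. Kcnip3, Nrg2 and Kcnk12 had 1, 1 and 2 reads over GATA2-GMP against 2907, 2088 and 1605 over GMP. Pyhin1, an interferon-inducible gene, was at 55.6 to 71.2 CPM and had 8 reads in GATA2-GMP, all in GATA2-GMP WT 3, so that its log2 fold change was -8.47, and -13.24 without that library. Irf8 completes the 12.

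Immediate early genes, which cells induce within minutes of a stimulus, were high in GMP. Of 23 tested 15 were lower in GATA2-GMP and 2, Ier3 and Dusp6, higher (median -1.97). Jun was at 1373, 531 and 1197 CPM in GMP and at 0.671, 0.852 and 0.676 CPM in GATA2-GMP (log2 fold change -10.45, SE 0.52, adjusted p = 4.24e-06). Fosb was at 822, 244 and 664 CPM and then at 0.820, 0 and 0.282 CPM (log2 fold change -10.69, adjusted p = 2.54e-05). Fos fell from 999, 345 and 881 CPM to 13.7, 8.70 and 19.6 CPM. GMP WT 2 was the lowest GMP library for all 3. Junb, Jund and the phosphatase Dusp2 had log2 fold changes of -5.24, -4.78 and -5.32. Egr1 was at 170, 24.95 and 109 CPM in GMP and at 12.6 to 36.9 CPM in GATA2-GMP (log2 fold change -1.97, adjusted p = 0.0276), and overlapped between the groups in GMP WT 2; its adjusted p is 0.0612 to 0.108 when GMP WT 1, GMP WT 3, GATA2-GMP WT 1 or GATA2-GMP WT 2 is left out. Ier3 passed the test under TMM, but not on library totals (adjusted p = 0.0761) or with exon-length offsets (0.119), and Dusp6 not on library totals (0.669).

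The inducible heat shock genes followed. Hspa1b was at 694, 140 and 408 CPM in GMP and had 3 reads over GATA2-GMP, a ratio of 1.55e-04 (3.19e-05 to 4.52e-04). Hspa1a, its close copy, was at 458, 93.4 and 293 CPM and then at 0.448, 0.243 and 0 CPM (log2 fold change -10.33, adjusted p = 4.00e-05). GMP WT 2 was again lowest. The family as a whole moved less: of 20 heat shock genes 4 were higher and 9 lower (median -0.44), and 2 were higher without GMP WT 2 or without GMP WT 3. On library totals alone 2 were higher and 16 lower. Hsph1 and Hspa4, of the Hsp110 class, fell by 1.37 and 1.03, and Dnaja1 rose by 1.45. Hsp90ab1, among the 5 genes with the most counts in GMP, was at 2969 to 3518 CPM and then at 2093, 2522 and 3855 CPM and was not called (log2 fold change -0.21, adjusted p = 0.488); without GATA2-GMP WT 3 it is called lower (-0.41, adjusted p = 0.0190), without GATA2-GMP WT 1 it is at 0.0055, and on library totals it is called lower at -1.04. The part of sorting or handling in these transcripts was not tested.

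Cell cycle genes did not move as one block. Of 26 DNA replication genes 9 were higher and 6 lower (median 0.20, but -0.64 with 3 higher and 14 lower on library totals alone). The shares were 34.6% higher and 23.1% lower, beside 34.1% and 36.4% of all genes tested. Rrm2, the small subunit of ribonucleotide reductase, was at 173 to 183 CPM in GMP and at 1515, 1499 and 2037 CPM in GATA2-GMP (log2 fold change 3.23, SE 0.20, adjusted p = 8.89e-06), and thymidylate synthase Tyms rose by 2.60. The helicase subunit Mcm2 fell from 398 to 406 CPM to 132 to 155 CPM (log2 fold change -1.52), the licensing factor Cdt1 by 2.27 and E2f1 by 1.97. Of 23 mitosis genes 13 were higher and 2 lower (median 0.93; 8 and 10 on library totals alone, and 1 lower without any one of GMP WT 1, 2 and 3 or GATA2-GMP WT 2). Ccnb1, cyclin B1, was at 29.4, 31.4 and 20.3 CPM and then at 250, 269 and 176 CPM (log2 fold change 3.10, adjusted p = 2.50e-05), and Cdk1, Birc5 and Nusap1 rose by 2.47, 2.45 and 2.46. The 2 called lower were Foxm1, by 0.91, and Plk1, by 0.45 (adjusted p = 0.0337). Plk1 loses its call when any of GMP WT 1, 2 or 3 or GATA2-GMP WT 2 is left out (adjusted p = 0.0626 to 0.134), under RLE scaling (0.0752), with DESeq2 (0.0538) and with the replicate block (0.0696).

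Inhibitors of the cycle and targets of p53 were higher: of 24 tested, 15 rose and 3 fell (median 2.02). Cdkn1a, which encodes p21, was at 17.9, 13.5 and 18.7 CPM in GMP and at 194, 194 and 236 CPM in GATA2-GMP (log2 fold change 3.64, SE 0.20, adjusted p = 5.70e-06). The death receptor Fas rose from 0.499 to 1.06 CPM to 57.3 to 90.9 CPM (log2 fold change 6.53), and Perp and Trp53inp1 by 6.19 and 3.30. The 3 that fell were Aen, Sesn1 and Bbc3, the gene of PUMA, by 3.30, 1.33 and 1.85. In the BCL2 family 9 of 17 were higher and 6 lower (median 0.94, but 0.11 with 6 higher and 7 lower on library totals). Bcl2 itself and Mcl1, which restrain cell death, fell by 1.54 and 0.98, whereas Bcl2l1, the gene of BCL-XL, rose from 10.5 to 12.7 CPM to 33.7 to 52.4 CPM (log2 fold change 1.89, adjusted p = 1.22e-04). The BCL2-related Bcl2a1a and Bcl2a1b rose by 7.78 and 7.12, with the reservation that these genes are near-identical copies. Bak1, a pore-forming killer, fell from 111 to 122 CPM to 9.85 to 14.4 CPM (log2 fold change -3.23).

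Secretory pathway genes were read next, given the granule load of eosinophils. Xbp1 was at 126, 128 and 147 CPM in GMP and at 367, 261 and 191 CPM in GATA2-GMP. Its log2 fold change of 1.03 (SE 0.25, adjusted p = 0.00602) is 0.17 on library totals alone (adjusted p = 0.489), and it does not pass a test against a fold change of 2 (adjusted p = 0.392). Ern1, which encodes the sensor IRE1 alpha that splices Xbp1 RNA, went the other way, from 195, 192 and 181 CPM to 2.69, 3.41 and 8.39 CPM (log2 fold change -5.27, SE 0.43, adjusted p = 2.58e-05). The counts do not show splicing of Xbp1. Atf6b and Mbtps1, a sensor and the protease that cleaves such sensors, fell by 2.85 and 1.45, and Creb3, a related factor, rose from 10.4 to 12.2 CPM to 155 to 177 CPM (log2 fold change 3.89, adjusted p = 2.59e-06). Over 11 UPR sensors and their relatives 3 were higher and 5 lower (median -0.54); the median is 0.13 with exon-length offsets, -0.19 without GMP WT 3 and -0.31 without GATA2-GMP WT 3, and 3 in place of 5 are lower without GMP WT 2.

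ER chaperones moved both ways: of 30 tested 11 were higher and 8 lower (median 0.26, 0.44 without GATA2-GMP WT 3, but -0.58 with 6 higher and 15 lower on library totals alone). The shares of 36.7% higher and 26.7% lower, beside 34.1% and 36.4% of all genes tested, do not set this list clearly apart. Hspa5, the major chaperone BiP, was at 2543, 1753 and 2619 CPM in GMP and at 1982, 2400 and 2548 CPM in GATA2-GMP, and the groups overlapped (log2 fold change 0.0030, adjusted p = 0.991; it is called lower, at -0.83, on library totals alone). Hsp90b1, the chaperone GRP94, was at 1211 to 1362 CPM and then at 3779 to 4363 CPM (adjusted p = 1.53e-04). Calr, calreticulin, rose from 3095 to 3290 CPM to 4838 to 5985 CPM (log2 fold change 0.81), but is at -0.02 on library totals, and its adjusted p is 0.0501 without GMP WT 2. The disulphide isomerase Pdia4 rose by 2.35, whereas Pdia3 and the co-chaperone Hyou1 fell by 1.88 and 2.02.

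Translocation into the ER and N-glycosylation leaned to one side, with 26 of 35 genes higher and 3 lower (median 1.15; 13 and 8 on library totals alone). Dad1, a subunit of the oligosaccharyltransferase, was at 91.8 to 97.3 CPM and then at 1046, 850 and 472 CPM (log2 fold change 3.07, adjusted p = 6.12e-05). Subunits of the signal peptidase, which trims the leader of secreted proteins, rose as well: Sec11c, Spcs1 and Sec11a by 3.02, 2.70 and 2.60. The 3 called lower were Srp68, by 1.52, Ddost, by 0.86, and Rpn1, by 0.51; Rpn1 (adjusted p = 0.0441) loses its call whenever a library other than GATA2-GMP WT 1 is left out (0.0746 to 0.184), reaching -0.34 without GATA2-GMP WT 3. In ER-associated degradation 11 of 24 genes were higher and 8 lower (median 0.43, but -0.42 on library totals; 7 higher without GMP WT 1, and 5 lower with exon-length offsets). Derl2 and Vimp rose by 2.47 and 3.09, Herpud1 by 2.14, and Syvn1, the ubiquitin ligase HRD1, fell from 53.8 to 80.2 CPM to 4.96 to 12.4 CPM (log2 fold change -2.82). Among COPI and COPII vesicle genes 16 of 31 were higher and 7 lower (median 0.51, but -0.31 on library totals; 11 lower without GATA2-GMP WT 3 and 4 with exon-length offsets), among them Copz1, Tmed3, Sec24a and Kdelr3, which rose by 2.78, 2.91, 1.997 and 4.57.

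Genes of the ATF4 and CHOP branch of the stress response were 14 higher and 9 lower of 29 (median 0.68, but -0.17 on library totals). Nupr1, a chromatin-associated stress protein, was at 0.0962 to 0.164 CPM and then at 61.0, 87.7 and 88.4 CPM (log2 fold change 9.08, adjusted p = 1.91e-06). Slc7a11, the cystine carrier, went from 1.49 to 2.50 CPM to 424, 356 and 605 CPM (log2 fold change 7.86), and Mthfd2, of mitochondrial one-carbon metabolism, rose by 3.48. Asns, asparagine synthetase, was at 18.9 to 23.1 CPM and then at 205, 510 and 358 CPM (log2 fold change 4.10). Ddit3, the gene of CHOP, and Trib3 rose by 3.28 and 6.85, and were highest in GATA2-GMP WT 2, as was Asns. Atf4 itself was at 271 to 331 CPM and then at 370 to 551 CPM (log2 fold change 0.68, adjusted p = 0.0158); it is at -0.17 on library totals and loses its call without GMP WT 2 (0.0824) or GMP WT 3 (0.0634). Of 20 aminoacyl-tRNA synthetases 6 were higher and 2 lower (median 0.43, but -0.39 on library totals; 10 higher without GATA2-GMP WT 1 or with DESeq2; medians of 0.71 without GATA2-GMP WT 1 and 0.24 without GATA2-GMP WT 3). Sars and Rars rose by 1.79 and 1.36, and Mars and Vars fell by 1.28 and 5.20.

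Cholesterol synthesis was among the most uniform pathways, with 22 of 24 genes higher and 2 lower and a median of 2.63. Fdft1, squalene synthase, was at 6.53, 5.60 and 6.30 CPM in GMP and at 118, 131 and 136 CPM in GATA2-GMP (log2 fold change 4.38, SE 0.17, adjusted p = 2.10e-06). Sc5d was at 16.31 to 18.9 CPM and then at 255 to 266 CPM (log2 fold change 3.91), and Fdps, Cyp51 and Sc4mol rose by 4.16, 3.59 and 5.32. Srebf2 was among the 2 that fell; it encodes the pathway's own transcription factor SREBP2 and went from 81.6 to 93.6 CPM to 11.04 to 12.1 CPM (log2 fold change -2.89, adjusted p = 5.37e-06). Hmgcs1, an early enzyme of the pathway, is listed at 0 in all 6 libraries.

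Genes of energy metabolism moved both ways, with more higher than lower on this scaling. Of 40 subunits of the respiratory chain 26 were higher and 7 lower (median 1.87, but 1.02 with 22 higher and 14 lower on library totals). Uqcrb, of complex III, was at 19.3 to 19.9 CPM and then at 263, 244 and 113 CPM (log2 fold change 3.39, adjusted p = 5.70e-05), and Ndufa1 and Ndufa5, of complex I, rose by 3.24 and 3.23. GATA2-GMP WT 3 was the lowest of its group for all 3. Of these 40 genes 25 lie in the shortest of the 5 length groups, and with exon-length offsets 24 are higher and 10 lower (median 0.96). Of 27 genes of glycolysis and the hypoxia response 14 were higher and 9 lower (median 0.73, but -0.12 with 7 higher and 13 lower on library totals). Aldoa, aldolase A, rose from 443 to 485 CPM to 2616, 2866 and 3195 CPM (log2 fold change 2.64, adjusted p = 1.38e-05) and Ldha by 2.06, while Pfkl, the liver-type phosphofructokinase, fell by 2.89. Pdk1, a kinase that holds pyruvate back from the mitochondrion, fell from 133 to 140 CPM to 8.09 to 11.8 CPM (log2 fold change -3.72, adjusted p = 4.88e-06). Gapdh is listed at 0.115 to 0.289 CPM in GMP and 5.29 to 6.996 CPM in GATA2-GMP; it has many processed copies in the genome, and these values are uncertain.

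Proteasome subunits rose together, 24 higher and 1 lower of 31 (median 1.93; 23 and 2 with exon-length offsets). Psmb3 was at 26.6 to 27.6 CPM and then at 269, 296 and 181 CPM (log2 fold change 3.198, adjusted p = 1.28e-05), and Psmb6 and Psmc4 rose by 2.51 and 2.35. Psmd3, of the regulatory lid, was the exception and fell from 136 to 147 CPM to 9.40 to 13.1 CPM (log2 fold change -3.65, adjusted p = 4.06e-06). Lysosomal genes were 25 higher and 7 lower of 37 (median 1.52). Ctsd, cathepsin D, was at 260 to 266 CPM and then at 2264, 2874 and 3433 CPM (log2 fold change 3.44), and Cd63, a tetraspanin of granule membranes, at 50.9 to 67.8 CPM and then at 2037, 2208 and 2056 CPM (log2 fold change 5.19, adjusted p = 2.59e-06). Tfeb, a regulator of lysosomal genes, fell by 3.03 and prosaposin (Psap) by 2.51.

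Of 45 cytosolic ribosomal protein genes 28 were higher and 3 lower (median 1.12), but 30 lie in the shortest of the 5 length groups, and with exon-length offsets 21 are higher and 11 lower (median 0.59). On library totals alone 15 are higher and 7 lower (median 0.27). Many ribosomal protein genes have processed copies in the genome, and how their reads were assigned was not tested. Ribosome biogenesis genes were 7 higher and 15 lower of 30 (median -0.53), with log2 fold changes of -2.98, -2.998, -4.17 and -1.51 for Tcof1, Gar1, Fbl and Ddx21. Rn45s, the precursor of ribosomal RNA, was at 9124, 9826 and 21240 CPM in GMP and at 6253, 7250 and 961 CPM in GATA2-GMP. It was not called (log2 fold change -1.47, adjusted p = 0.0904), although the groups did not overlap; DESeq2 calls it (adjusted p = 0.0391). Replication-dependent histones, which are read in polyadenylated RNA only in small part, were 4 higher and 7 lower of 20 (median -0.60; 2 and 13 with exon-length offsets, and 7 higher, with a median of -0.19, without GATA2-GMP WT 3). Among 22 genes of heme synthesis and iron 11 were higher and 8 lower (median 0.57, but -0.26 on library totals; 6 higher without GMP WT 3). Ftl1, the ferritin light chain, rose from 164 to 180 CPM to 3114, 3579 and 1886 CPM (log2 fold change 4.06), the iron exporter Slc40a1 by 3.67 and the heme-degrading Hmox1 by 5.05.

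Cytokines and chemokines were 18 higher and 2 lower of 22 (median 3.95). Ccl6 was at 6.24, 5.18 and 6.35 CPM in GMP and at 15310, 20280 and 8415 CPM in GATA2-GMP (log2 fold change 11.27, adjusted p = 3.56e-06). Il6 was at 0 to 0.192 CPM and then at 342, 761 and 241 CPM (log2 fold change 12.51, SE 0.83, adjusted p = 1.12e-05), and Il1rn, the interleukin 1 receptor antagonist, at 0.164 to 0.384 CPM and then at 165 to 218 CPM (log2 fold change 9.37). Tgfb1 was the clearest fall, from 180, 186 and 204 CPM to 2.98, 4.50 and 2.76 CPM (log2 fold change -5.79, adjusted p = 2.63e-06). Cxcl10, the other lower gene (-1.64, adjusted p = 0.0440), loses its call when GMP WT 1 or any GATA2-GMP library is left out (0.0783 to 0.278), with -0.71 without GMP WT 1. Chemoattractant receptors were 13 higher and 3 lower of 19 (median 2.27). Ccr1 was at 0.985 to 1.30 CPM and then at 488, 630 and 415 CPM (log2 fold change 8.77), and C5ar1 rose by 10.95; Fpr1 had 1 GMP read, a ratio of 708 (126 to 28000). Ltb4r1, a leukotriene B4 receptor, fell by 1.80, and the log2 fold changes of Cx3cr1 and Cysltr1 were -4.87 and -4.31, or -8.24 and -9.06 without GATA2-GMP WT 3, which held nearly all their reads in that group.

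Lipid mediator enzymes were 13 higher and 1, Ptges2, lower of 16 (median 3.36; 2 lower without GATA2-GMP WT 1). Alox15, the 12/15-lipoxygenase of mouse eosinophils, was at 0.205, 0.192 and 0 CPM in GMP and at 291, 265 and 700 CPM in GATA2-GMP (log2 fold change 11.49, SE 0.73, adjusted p = 1.02e-05). Alox5, the 5-lipoxygenase that starts leukotriene synthesis, was at 4.11 to 5.58 CPM and then at 1016, 1048 and 2165 CPM (log2 fold change 8.13). Hpgds, a prostaglandin D2 synthase, rose by 4.80. Integrins and other adhesion molecules were 15 higher and 7 lower of 23 (median 1.31). Vcam1 was at 26.4, 13.2 and 12.7 CPM and then at 1367, 993 and 1674 CPM (log2 fold change 6.27, adjusted p = 1.11e-05), and Cd9, a tetraspanin of eosinophils, rose by 5.15. Itgb2 and Itgam, which form the Mac-1 integrin, rose by 5.63 and 3.76, while Itga4, the VLA-4 alpha chain, fell by 2.47.

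Feedback genes of STAT5, the signal transducer of the beta-chain receptors, were 10 higher and 6 lower of 19 (median 0.65, but -0.20 on library totals). Cish was at 1.06 to 1.42 CPM in GMP and at 234, 206 and 243 CPM in GATA2-GMP (log2 fold change 7.49, SE 0.21, adjusted p = 1.87e-06). Socs2 was at 0.0384 to 0.246 CPM and then at 34.6 to 47.3 CPM (log2 fold change 8.27), and the kinase Pim2 rose by 2.80. Ccnd1 and Bcl6 fell by 3.09 and 3.41. Interferon response genes were 11 higher and 9 lower of 30 (36.7% and 30.0%, beside 34.1% and 36.4% of all genes tested). Without GMP WT 3, 7 are higher. The list had a median of -0.06. Between alternatives this median ranged from -0.89 on library totals alone to 0.40 with exon-length offsets, it was -0.35 without GATA2-GMP WT 3 and 0.04 without GATA2-GMP WT 1, and its sign differed between alternatives. Ifitm3 rose from 33.2 to 35.4 CPM to 798, 663 and 367 CPM (log2 fold change 4.14), and Gbp3 fell from 69.1 to 79.3 CPM to 0.448, 3.95 and 1.75 CPM (log2 fold change -5.14).

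**Figure D5:**
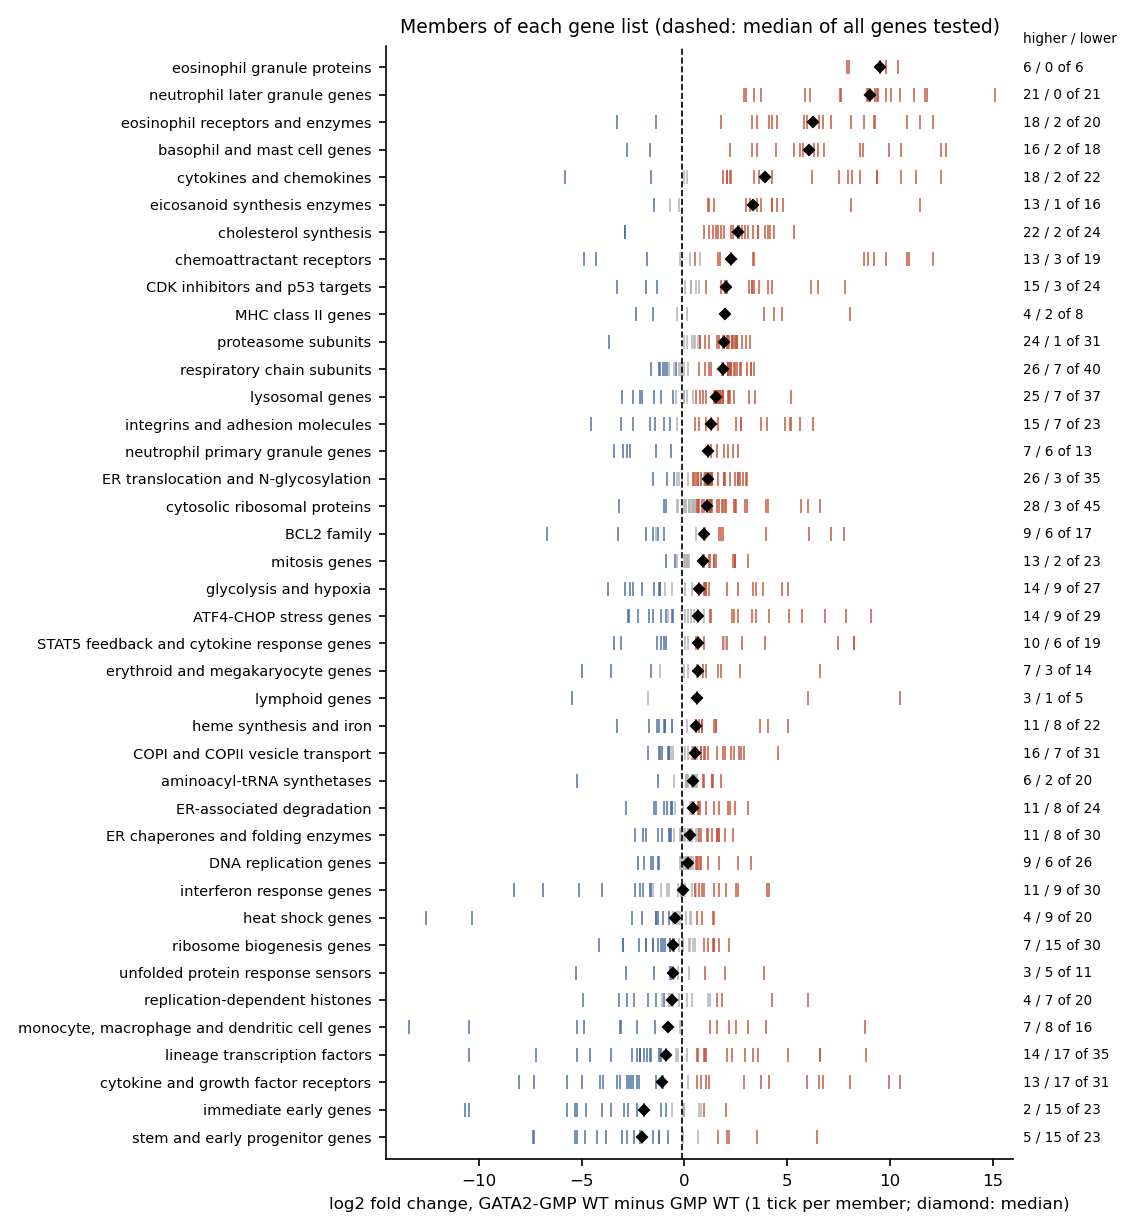
Log2 fold change (GATA2-GMP WT minus GMP WT) of each tested member of the gene lists, 1 tick per gene (red called higher, blue called lower, grey not called), with diamonds at list medians and a dashed line at the median of all genes tested (-0.09). Eosinophil granule proteins (median 9.53) and later neutrophil granule genes (9.06) lie farthest right, immediate early genes (-1.97) and stem and early progenitor genes (-2.08) farthest left, and the counts at the right give members higher and lower of those tested.

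Last, the wild-type stage difference was set beside that of Xbp1-deficient cells, whose groups differ in the same ways. The difference between the stage effects passed the test in 11 of 12803 genes, or 0.0859%, 4 with a positive and 7 with a negative value (Xbp1-deficient minus wild type). Ear1, Ear2 and Pdk1 are described because they are among the genes named above. The lowest adjusted p of the 11 was that of Sncaip, at 0.00733 (difference -5.51). On the scaling of all 12 libraries, Ear1 was at 369, 76.0 and 110 CPM in GATA2-GMP WT and at 1.46, 2.304 and 2.33 CPM in the Xbp1-deficient GATA2-GMP libraries. The log2 stage difference of Ear1 was 7.998 in wild type and 1.25 in Xbp1-deficient cells, a difference of -6.75 (SE 0.92, adjusted p = 0.0278). For Ear2 these were 7.90 and 1.30, a difference of -6.58 (adjusted p = 0.0321). Pdk1 fell by 3.72 in wild type and by 1.62 in Xbp1-deficient cells, a difference of 2.10 (adjusted p = 0.0278). For Prg2, Epx and Smo the differences of -2.92, -3.99 and 5.57 did not pass (adjusted p = 0.0960, 0.0609 and 0.0770). Prg2 was at 49530 to 60220 CPM in the Xbp1-deficient GATA2-GMP. Hspa5, flat between the wild-type stages, did not pass either (difference 1.497, adjusted p = 0.0609). On the same scaling it was at 1736, 1323 and 1616 CPM in Xbp1-deficient GMP. In Xbp1-deficient GATA2-GMP it was at 4673, 4720 and 3761 CPM, against 2056, 2475 and 2637 CPM in GATA2-GMP WT. This count of 11 rests on single libraries: the number was 1179 without GATA2-GMP WT 3, 127 without GATA2-GMP WT 2, 25 and 28 without replicate 2 and replicate 3 of the Xbp1-deficient GATA2-GMP, 0 without their replicate 1, and 1 or 2 without any GMP library, and DESeq2 called 794. Ear1, Ear2 and Pdk1 each lost their call when any one of the 6 GMP libraries, or replicate 1 of the Xbp1-deficient GATA2-GMP, was left out (adjusted p of 0.0504 to 0.127 for Ear1, 0.0830 to 0.179 for Ear2 and 0.0504 to 0.127 for Pdk1), and Ear2 also without their replicate 3 (0.0549).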

How the data were processed

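RNA was sequenced from 3 libraries in each of 4 groups, of which the 6 wild-type libraries are described. The deposited values are whole-number counts of reads per gene, 1 table per library; per the submitters' processing notes the tools were STAR 2.3.0, SAMtools 0.1.14, HTSeq and DESeq on build mm9, and the strand setting is not given in the sources used here. Each table holds 23366 genes and 5 counter rows of the counting tool, which were dropped (55.8 to 62.6% of each column). Of reads aligned to a single place, 29.8 to 32.7% fell in no counted gene in GMP WT. In GATA2-GMP WT this share was 19.9 to 24.9%. Of 27 names that a spreadsheet had turned into dates 23 were restored and 4 were left out, so that 23362 genes were used.

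Totals were 15629784 to 22563638 counts per library; intervals and floors cover counting error only. edgeR 4.0.16 (R 4.3.3) fitted the 6 wild-type libraries with its filter on low counts, TMM scaling and the quasi-likelihood test, at an adjusted p (Benjamini-Hochberg, all genes tested) under 0.05. The script was tested on simulated data with few changed genes, balanced in direction, which cannot show how the scaling behaves in these data. Against a group without reads, a fold is a lower bound on a floor of 3 counts over the group; with 1 to 3 counts the ratio and its 95% interval are given. The difference of stage effects used all 12 libraries. Genes are named as the 12 largest rises and falls of at least 20 CPM in the higher group, the 5 with the largest share of counts per group and up to 4 members of each of 41 lists; others were named after their values were seen. Members and lists were chosen with earlier results of these data known. Alternatives were RLE, upper-quartile and no scaling, no filter, DESeq2 1.42.0, a test against a fold change of 2, exon-length offsets, all 12 libraries in the fit, a replicate block, leaving out the largest genes and leaving out each library. No scaling and the length offsets were chosen after seeing the data. Same-numbered libraries of the stages did not deviate together (r = 0.0151, 0.0109 and 0.0452), so the numbers were not taken as pairs. Promoters come from RefSeq on GRCm38.p6 and are not joined to mm9 coordinates. A few genes are not reported here.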

Additional observations from a re-analysis of the deposited data

Results flagged for a closer look

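In 3 genes named above the stage difference itself differed between Xbp1-deficient and wild-type cells (edgeR's quasi-likelihood test of the interaction, adjusted over 12803 genes). Ear1 and Ear2, near-identical eosinophil ribonucleases, rose less in the Xbp1-deficient cells, with differences of -6.75 (adjusted p = 0.0278) and -6.58 (adjusted p = 0.0321) on the log2 scale. Ear2 was at 130, 35.7 and 35.1 CPM in GATA2-GMP WT and at 0.601 to 0.992 CPM in each of the 3 Xbp1-deficient GATA2-GMP libraries. Pdk1 fell less in the Xbp1-deficient cells, with a difference of 2.10 (adjusted p = 0.0278). Its level in GATA2-GMP was 8.35 to 12.2 CPM in wild type and 32.3 to 56.5 CPM in Xbp1-deficient cells, without overlap. None of the 3 is called when any one of the 6 GMP libraries, or replicate 1 of the Xbp1-deficient GATA2-GMP, is left out (adjusted p of 0.0504 to 0.127 for Ear1, 0.0830 to 0.179 for Ear2 and 0.0504 to 0.127 for Pdk1); Ear2 is also not called without replicate 3 of the latter (0.0549).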

How the results depend on the processing

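Of 269 named genes called between the stages, 254 had a value under all 16 alternatives, and 235 of these kept their direction and call under each. The other 15 had no value under at least 1 alternative. Many were named for a large change or a low adjusted p, so this share does not stand for all genes. Of all 8638 called, 6963 kept call and direction on library totals alone. With exon-length offsets, which covered 11489 genes, 7087 did. The count of 8638 genes called was within 1.5 times under each alternative but the test against a fold change of 2, which called 5237. Leaving out single libraries gave 7621 (without GMP WT 2) to 9826 (without GATA2-GMP WT 3). Without scaling factors, log2 fold changes turned to -0.17 for Atf4, -0.0245 for Calr, -0.22 for Cd79b, -0.30 for Ddx3y, -0.18 for Uty and -0.83 for Hspa5, and Cd79b was at -0.11 with exon-length offsets. Hspa5, at 0.0030 with no call, was at -0.19 under upper-quartile scaling, -0.0571 without the filter, -0.0042 with all 12 libraries, and -0.17 to 0.15 when single libraries were left out; Hsp90ab1 ranged from -0.41 to 0.0055. For the difference of stage effects, 11 genes became 17 under RLE scaling, 40 without the filter and 794 with DESeq2, and 0 to 1179 when single libraries were left out; the cause was not tested. With the replicate number as a block, 8406 genes were called between the stages and 8 for the interaction; the numbers do not pair the libraries. Genes with few counts have folds limited by depth, and 3 libraries per group limit every p-value.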
